A study of Mus musculus with 8 samples.

Results

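The transcription factor AP-1 is a dimer of a Fos family protein and a Jun family protein, or of a pair of Jun proteins. Its genes and a few others, such as Egr1, Ier2 and Ier3, are called immediate early genes because a growth factor, hormone, stress or tissue handling can switch them on within minutes, without new protein being made first. In the collecting duct, vasopressin acts through cAMP and protein kinase A, and CREB, a target of that kinase, is among the factors that can switch on Fos. The 10 members described are the rows of the deposited expression table whose symbols are Fos, Fosb, Fosl1, Fosl2, Jun, Junb, Jund, Egr1, Ier2 and Ier3, out of 77981 genes in all. The rule takes them by symbol and uses no measured value, but earlier results of these data were known when it was set.

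The study sequenced mouse kidney RNA in 8 libraries, and the labels name the cell type IMCD, for inner medullary collecting duct. 4 came from AVP-flox mice, in which loxP sites were placed in the first intron and downstream of the vasopressin gene Avp, and 4 from AVP-flox;Cre mice, which also carry a Cre recombinase that can cut out the flanked part. All 8 were from mice given tamoxifen, the drug that activates inducible Cre. Neither the promoter that drives Cre nor the animals' age was stated in the labels, and no library carries Cre without the floxed gene, so an effect of Cre itself cannot be told apart from loss of Avp. The labels do not say that replicates are separate animals, so the p-values measure the spread between these samples, which may be technical.

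Expression is given as TPM (a level per transcript length, scaled so that each library sums to 1000000), made by the authors. TPM keeps no record of read number, so the depth is unknown. Avp, the targeted gene, reached at most 0.24 TPM in AVP-flox and 0.27 TPM in AVP-flox;Cre. The hypothalamus is where this hormone is produced, and kidney RNA is no check of the deletion. All 12 collecting duct markers were tested, and 4 rose and 3 fell, with a median log2 fold change of 0.19. Aqp2, the vasopressin-regulated water channel, stood at 14915 to 18131 TPM in AVP-flox and 5443 to 7036 TPM in AVP-flox;Cre (-1.35) and Aqp4 fell too (-0.78), while Scnn1b, a sodium channel subunit, rose (1.28), as did Cdh16 (0.82). The summed TPM of 11 fibroblast, pericyte and smooth muscle markers was 144 to 197 in AVP-flox and 296 to 368 in AVP-flox;Cre, with 5 of 10 tested markers higher and 0 lower in limma. That of 15 leukocyte markers was 143 to 226 and 193 to 276 (3 of 10 tested higher), and that of 11 intercalated cell markers 265 to 401 and 387 to 517 (5 of 10 tested higher). That of 10 endothelial markers was 2658 to 2751 and 2337 to 2434 (5 higher and 2 lower of 10). Emcn, 1 of the 2 lower, stood at 654 to 762 TPM in AVP-flox and 339 to 401 TPM in AVP-flox;Cre. The median log2 fold change of the endothelial markers was 0.36. Over all 19043 tested genes, 13.1% rose and 14.2% fell. No marker of these lists was listed at 0 in all 8 libraries, and their part in the results was not tested. In such bulk samples, fewer cells of a type and less RNA per cell cannot be told apart. Genes listed above 0 TPM numbered 33576 in AVP-flox;Cre 2 and at least 50951 elsewhere, and genes at 1 TPM or more numbered 23412 in AVP-flox;Cre 4 and at most 20765 elsewhere. AVP-flox 2 had a summed TPM of 1735 over the thick and thin limb markers, where the other AVP-flox libraries had 3483 to 3574. Results are therefore also given without these 3 libraries.

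The bases just upstream of 4 members are shown, because Fos, Jun and Junb varied together between libraries while Ier3 differed between the genotypes. They are the 250 bases before the RefSeq start of each gene in GRCm38.p6, written in the direction of transcription. Capitals mark TGACG, the core of the site bound by the cAMP-responsive factor CREB, and TGACNTCA, a site form that Jun and ATF proteins can bind.
Fos, chr12:85473640-85473889, + strand: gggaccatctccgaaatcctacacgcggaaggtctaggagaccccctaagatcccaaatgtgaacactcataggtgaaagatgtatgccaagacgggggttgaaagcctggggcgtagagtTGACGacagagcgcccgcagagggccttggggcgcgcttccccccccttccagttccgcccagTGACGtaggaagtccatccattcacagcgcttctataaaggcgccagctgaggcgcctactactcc
Junb, chr8:84978749-84978998, - strand: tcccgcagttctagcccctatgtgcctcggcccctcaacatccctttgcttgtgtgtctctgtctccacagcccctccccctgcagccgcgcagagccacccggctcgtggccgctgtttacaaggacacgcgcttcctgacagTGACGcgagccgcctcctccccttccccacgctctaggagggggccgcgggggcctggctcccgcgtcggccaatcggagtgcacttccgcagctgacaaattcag
Jun, chr4:95052223-95052472, - strand: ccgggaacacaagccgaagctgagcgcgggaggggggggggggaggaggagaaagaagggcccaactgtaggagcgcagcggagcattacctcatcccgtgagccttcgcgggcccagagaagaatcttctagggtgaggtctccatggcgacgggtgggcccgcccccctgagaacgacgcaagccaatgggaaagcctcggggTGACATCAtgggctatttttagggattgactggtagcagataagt
Ier3, chr17:35821463-35821712, + strand: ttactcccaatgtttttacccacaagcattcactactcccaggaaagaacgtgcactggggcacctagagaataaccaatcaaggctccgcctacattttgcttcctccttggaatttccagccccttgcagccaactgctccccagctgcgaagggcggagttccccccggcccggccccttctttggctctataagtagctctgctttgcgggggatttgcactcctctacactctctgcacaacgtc
TGACG was searched on both strands, and it can lie inside TGACNTCA. It was found 129 and 66 bases upstream of the Fos start and 106 bases upstream of the Junb start. It was also found 60 bases upstream of the start of Fosb, a member that was barely detected. TGACNTCA was found once, 45 bases upstream of the Jun start. Neither TGACG nor TGACNTCA was found in the windows of Ier3, Fosl2 and Jund. Jund also differed between the genotypes, and its window is not shown. Among 32851 RefSeq windows of the same length, 17.8% held TGACG and 7.49% held TGACNTCA. The AP-1 site TGANTCA and the CArG box of the serum response factor, held by 6.75% and 1.47% of windows, were not in any of the 7 member windows searched, those of Fos, Fosb, Fosl2, Jun, Junb, Jund and Ier3. These matches describe letters only. The windows of Fosl1, Egr1 and Ier2 were not searched, nor were bases more than 250 upstream, so sites there are not covered.

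Of the 10 members, 8 reached the mean of 1 TPM required for testing, and Fosb and Fosl1 did not. The members were compared between the genotypes. Ier3 rose, Jund fell, and the other 6 did not pass the test, so 2 of 8 tested members changed where 27.3% of the 19043 tested genes did. The groups did not overlap for the same 2 members, where 29.5% of tested genes had groups that did not overlap. The members' shares were near these backgrounds. The median log2 fold change was 0.31 over the 8 members and -0.01 over all tested genes. Adjusted p-values are from limma on log2(TPM + 1), two-sided, adjusted by Benjamini-Hochberg over all tested genes, and 0.05 was the threshold. A positive log2 fold change means a higher value in AVP-flox;Cre.

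**Figure D1:**
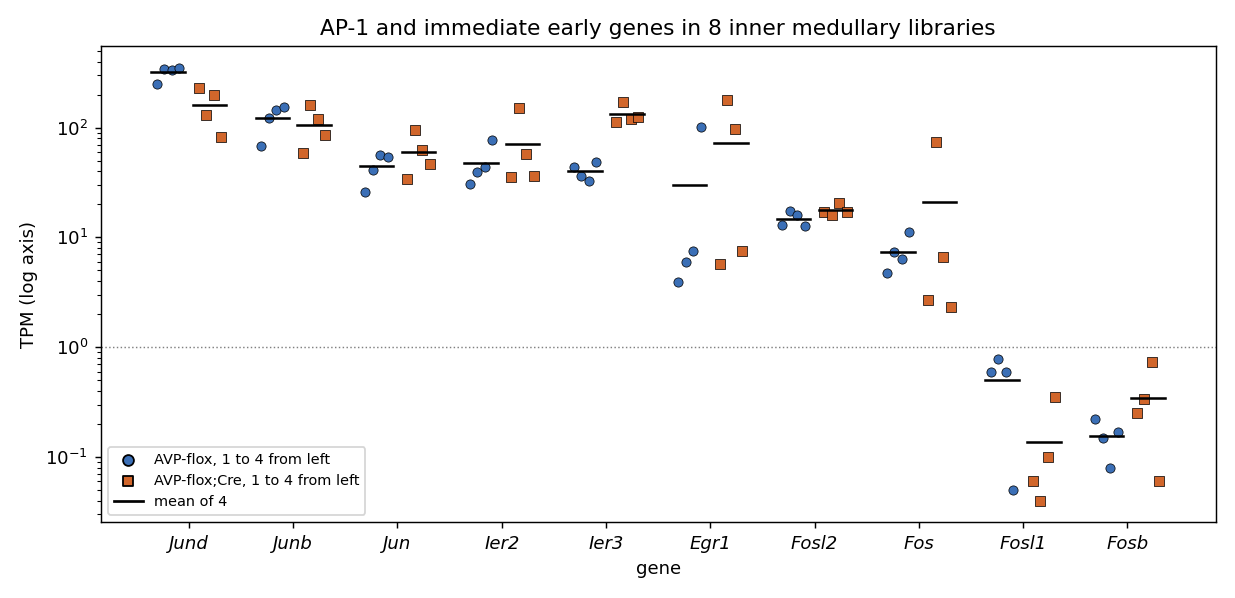
TPM of each member in each library on a log axis, with AVP-flox as circles and AVP-flox;Cre as squares (replicates 1 to 4 from left to right within each set) and the group mean as a bar; the dotted line is at 1 TPM. Ier3 is at 112 to 170 TPM in AVP-flox;Cre, above all AVP-flox libraries, and Jund is at 82.7 to 230 TPM there, below all of them, while Egr1 and Fos are high in single libraries.

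Ier3, a small stress-induced protein known for its effects on cell survival, had the clearest difference. It stood at 43.67, 36.17, 32.73 and 48.91 TPM in AVP-flox 1 to 4 and at 112.03, 169.93, 120.45 and 125.17 TPM in AVP-flox;Cre 1 to 4. Every AVP-flox;Cre library was above every AVP-flox library. The means were 40.4 ± 7.3 and 132 ± 26 TPM (SD, n = 4 per group), a ratio of 3.27. The log2 fold change was 1.68 (SE 0.15, 95% interval 1.34 to 2.02, limma adjusted p = 8.10e-05), and the exact two-sided permutation test of the mean TPM gave p = 0.0286, the smallest that 4 against 4 allows. With the 3 libraries that stood apart left out it was 1.47 (limma adjusted p = 0.00553). Without AVP-flox;Cre 2, in which several other members peaked, it was 1.55.

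Jund, the Jun protein that most cells make at rest and that can restrain growth, was the most abundant member in AVP-flox and was the one that fell. It stood at 249.59, 345.25, 334.21 and 352.49 TPM in AVP-flox 1 to 4 and at 229.71, 129.79, 197.31 and 82.70 TPM in AVP-flox;Cre 1 to 4. The groups did not overlap, but AVP-flox;Cre 1 lay close to AVP-flox 1, and the AVP-flox;Cre libraries spread 2.78-fold. The means were 320 ± 48 and 160 ± 66 TPM (SD, n = 4 per group), a 2.00-fold fall. The log2 fold change was -1.09 (SE 0.28, 95% interval -1.71 to -0.47, limma adjusted p = 0.0160), and the exact permutation test gave p = 0.0286. Without the 3 libraries that stood apart the value was -0.53 and the call ended (limma adjusted p = 0.0729).

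The first 300 nt of the longest Jund transcript hold 76% GC, the highest of the 10 members, and Jund has 1 exon. 627 other tested genes had 74 to 78% GC there and averaged 10 TPM or more in AVP-flox, and 31.3% of them fell and 10.4% rose. Of 4601 genes with at most 60% GC and the same minimum of 10 TPM, 18.9% fell and 18% rose. The part of GC content in the fall of Jund was not tested beyond these values and the correction given next. The median deviation of the 627 genes from the AVP-flox mean was -0.06, -0.29, -0.14 and -0.21 on the log2 scale in AVP-flox;Cre 1 to 4. The deviation of Jund was -0.46, -1.28, -0.68 and -1.93. Both were smallest in AVP-flox;Cre 1, but the median was lowest in AVP-flox;Cre 2 and Jund was lowest in AVP-flox;Cre 4. Jund was examined because it fell, so its distance from the median of these genes is no test. With each library corrected for its trend with this GC content, Jund stood at -0.90 (limma adjusted p = 0.0180) and Ier3 at 1.67. The antisense gene Gm11175 overlaps Jund in the mouse annotation GENCODE M21 and stood at 6.61 to 29.23 TPM in AVP-flox and 0 to 12.86 TPM in AVP-flox;Cre, without passing the test (log2 fold change -1.85, limma adjusted p = 0.0779). The labels do not say whether reads were counted by strand, and reads of the overlapped parts therefore cannot be told apart. The same holds for Jun with the antisense gene Junos, for Junb with Prdx2, and for Fosl1 with Ccdc85b.

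**Figure D2:**
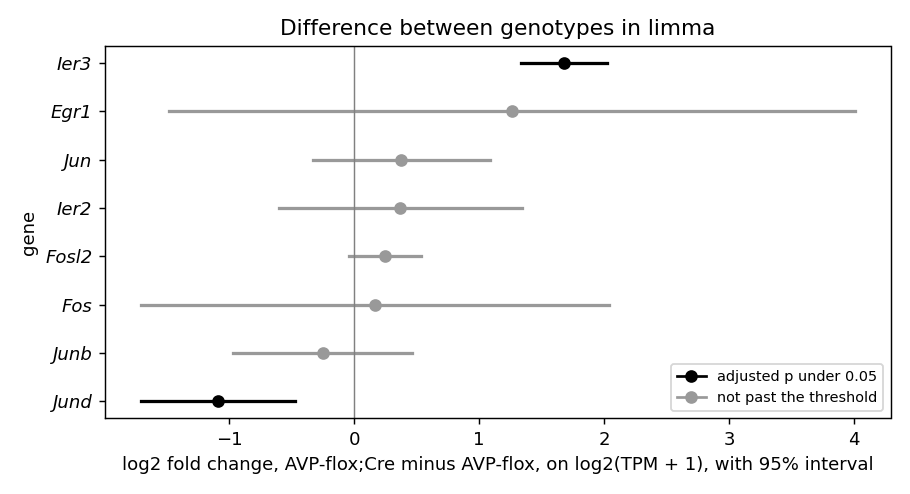
Log2 fold change of the 8 tested members on the log2(TPM + 1) scale (x axis) with its 95% interval, black where the limma adjusted p is under 0.05 and grey otherwise. Only the intervals of Ier3 (1.34 to 2.02) and Jund (-1.71 to -0.47) exclude 0, and those of Egr1 and Fos are the widest.

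The other Jun genes did not differ between the genotypes beyond the spread. Jun, the founding member and the strongest activator of its family, stood at 25.72, 40.73, 56.36 and 54.57 TPM in AVP-flox 1 to 4 and at 33.90, 94.32, 62.34 and 46.88 TPM in AVP-flox;Cre 1 to 4. Its groups overlapped, with a log2 fold change of 0.38 (95% interval -0.33 to 1.08, limma adjusted p = 0.421). Junb, which often opposes Jun, stood at 68.50, 123.57, 145.23 and 154.40 TPM and at 58.70, 159.27, 118.70 and 84.91 TPM. It was lowest in replicate 1 of each group, and its log2 fold change was -0.25 (95% interval -0.97 to 0.47, limma adjusted p = 0.612).

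Levels in TPM are per transcript length, so those of different genes can be set side by side roughly. The scaling does not remove effects of GC content or of reads from overlapping genes. Jund made up 72.6, 67.8, 62.4 and 62.8% of the summed Jun family TPM in AVP-flox 1 to 4, and 71.3, 33.9, 52.2 and 38.6% in AVP-flox;Cre 1 to 4. Its share in AVP-flox;Cre 1 was thus within the AVP-flox range, and its share in the other 3 was below it. The share of Jun was 7.48 to 10.5% in AVP-flox and 10.5 to 24.6% in AVP-flox;Cre. The summed family was 344 to 561 TPM in AVP-flox and 214 to 383 TPM in AVP-flox;Cre. These shares are a description and were not tested.

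In AVP-flox the mean levels ran in the order Jund, Junb, Ier2, Jun, Ier3, Egr1, Fosl2, Fos, Fosl1 and Fosb. Jund was above Junb, Fosl2 above Fos, and Fos above Fosl1 with no overlap of ranges, and the other neighbours overlapped. The place of Egr1 rests on AVP-flox 4, since it was above Fosl2 in 1 of the 4 libraries. In AVP-flox;Cre, Jund (160 TPM) and Ier3 (132 TPM) led, and Jund exceeded Ier3 in 2 of the 4 libraries.

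**Figure D3:**
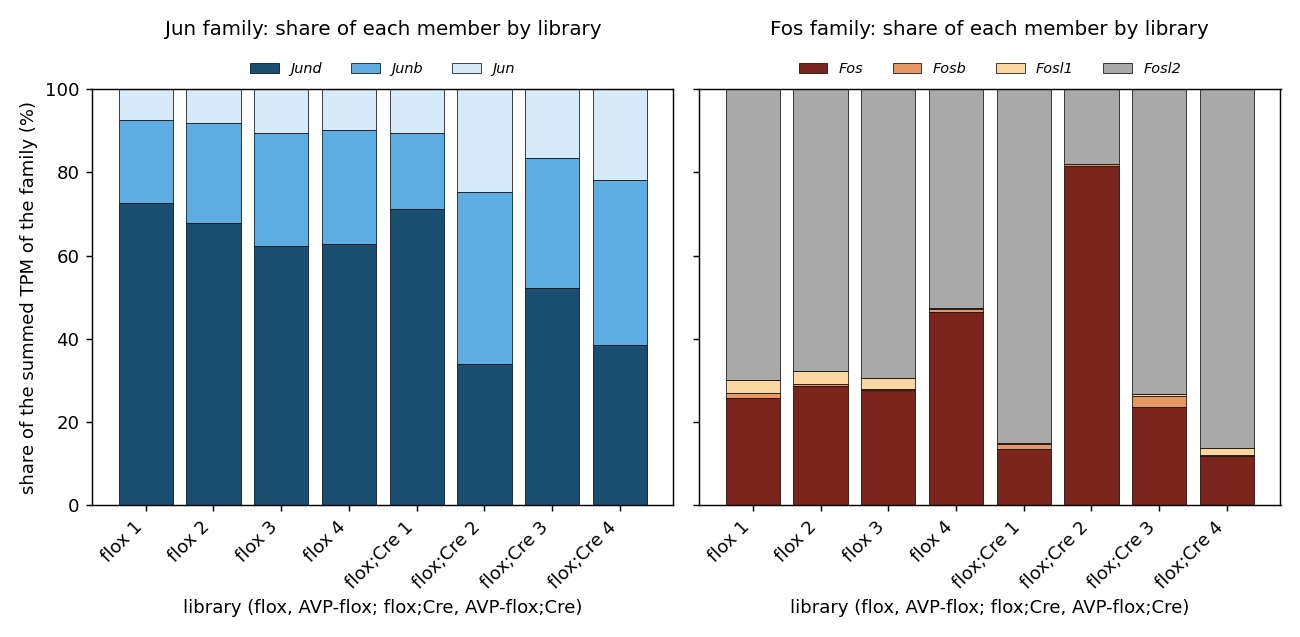
Share of each member in the summed TPM of the Jun family (left) and the Fos family (right), in percent, with 1 bar per library. Jund takes 62.4 to 72.6% of the Jun family in AVP-flox and 33.9 to 71.3% in AVP-flox;Cre, and Fos takes 81.6% of the Fos family in AVP-flox;Cre 2.

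Fos family proteins pair with Jun proteins and do not pair with each other. Fos, the classic short-lived immediate early gene, stood at 4.77, 7.34, 6.32 and 11.19 TPM in AVP-flox 1 to 4 and at 2.67, 73.25, 6.63 and 2.30 TPM in AVP-flox;Cre 1 to 4. A single library, AVP-flox;Cre 2, was far above the rest, while replicates 1 and 4 of AVP-flox;Cre were below every AVP-flox library. The log2 fold change was 0.17 (95% interval -1.70 to 2.04, limma adjusted p = 0.907). Without AVP-flox;Cre 2 the direction turned, to -0.84 (limma adjusted p = 0.0996).

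Fosl2, a longer-lived relative of Fos, stood at 12.97, 17.42, 15.89 and 12.66 TPM in AVP-flox 1 to 4 and at 16.89, 16.10, 20.52 and 16.92 TPM in AVP-flox;Cre 1 to 4. It varied least of the members, and its groups overlapped (log2 fold change 0.25, 95% interval -0.04 to 0.53, limma adjusted p = 0.183). It supplied 52.6 to 69.9% of the summed Fos family TPM in AVP-flox and 73.3 to 86.2% in AVP-flox;Cre 1, 3 and 4, but 17.9% in AVP-flox;Cre 2, where Fos supplied 81.6%. Fosl1 stood at 0.05 to 0.78 TPM in AVP-flox and 0.04 to 0.35 TPM in AVP-flox;Cre (exact permutation test, two-sided p = 0.114). Fosb stood at 0.08 to 0.22 TPM and 0.06 to 0.73 TPM (exact permutation test, two-sided p = 0.229). Both are usually made after a strong stimulus, and both were under 1 TPM in every library.

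Egr1, a zinc finger factor induced by serum and stress, split the libraries in a way that did not follow genotype. It stood at 3.96, 5.95, 7.44 and 102.33 TPM in AVP-flox 1 to 4 and at 5.67, 179.83, 96.52 and 7.48 TPM in AVP-flox;Cre 1 to 4. 3 libraries, 1 of AVP-flox and 2 of AVP-flox;Cre, were above 90 TPM, and the other 5 were under 8 TPM. The log2 fold change was 1.26 with a 95% interval of -1.48 to 4.01 (limma adjusted p = 0.492). Single libraries moved it, to 0.42 without AVP-flox;Cre 2 and to 2.25 without AVP-flox 4, and it passed the test in neither case (limma adjusted p = 0.820 and 0.174). Ier2, a nuclear protein induced with Fos, stood at 30.59, 39.51, 43.40 and 76.70 TPM and at 35.62, 152.11, 57.81 and 36.45 TPM. It was highest in replicate 4 of AVP-flox and replicate 2 of AVP-flox;Cre, with a log2 fold change of 0.37 (95% interval -0.60 to 1.35, limma adjusted p = 0.578) that became -0.09 without AVP-flox;Cre 2.

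**Figure D4:**
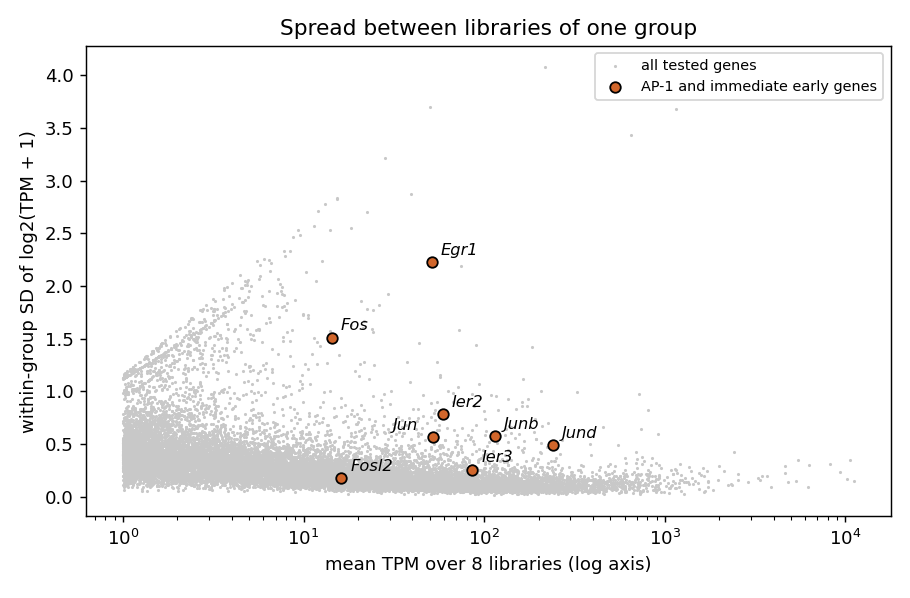
Within-group standard deviation of log2(TPM + 1) (y axis) against mean TPM over 8 libraries (x axis, log) for all 19043 tested genes in grey and the 8 tested members in orange. Egr1 (2.22) and Fos (1.51) lie far above the median of all tested genes (0.22), and Fosl2 (0.18) lies below it.

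Several members varied widely between libraries of one group. The median within-group SD of log2(TPM + 1) was 0.57 over the 8 members and 0.22 over all tested genes. Egr1, with an SD of 2.22, exceeded 99.9% of tested genes and Fos, with 1.51, exceeded 99.0%, and these 2 of 8 members were the ones above the 95th percentile of tested genes. Ier2 (0.79), Junb (0.57), Jun (0.57) and Jund (0.49) exceeded 94.9, 90.1, 89.8 and 86.6% of them. Ier3 (0.26) and Fosl2 (0.18) exceeded 58.5 and 38.7%. These are descriptions, with no test of the spread.

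**Figure D5:**
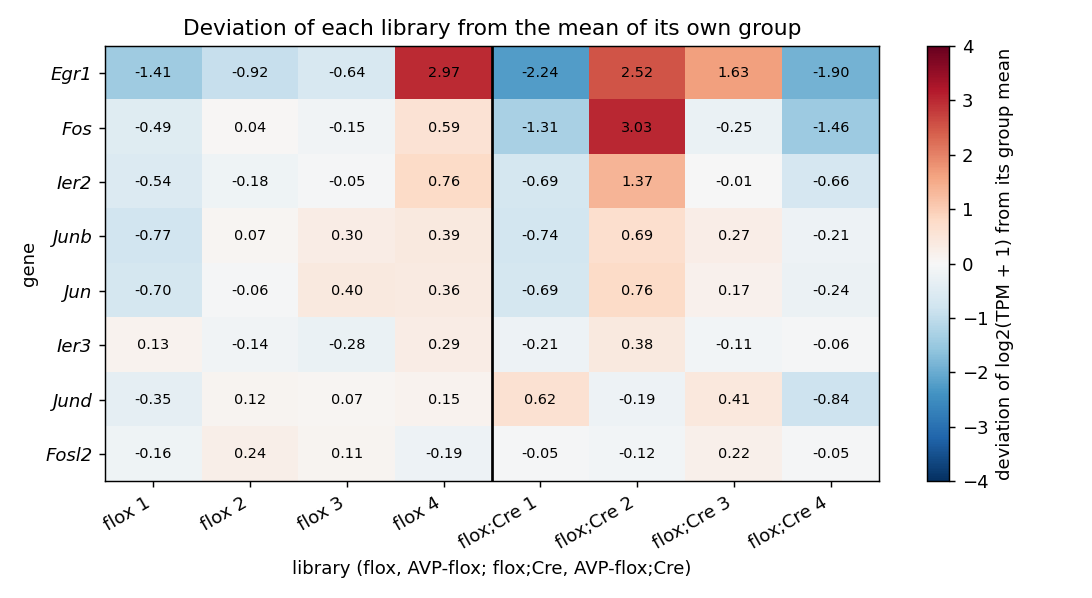
Deviation of log2(TPM + 1) from the mean of its own group, for each tested member (rows) in each library (columns), with the value in each cell. Egr1, Fos, Ier2, Junb and Jun are high together in AVP-flox;Cre 2 (0.69 to 3.03) and low together in AVP-flox 1 (-1.41 to -0.49) and AVP-flox;Cre 1 (-2.24 to -0.69), while Jund is at -0.19 in AVP-flox;Cre 2.

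Fos, Jun, Junb, Egr1 and Ier2 varied together among libraries of the same group. In AVP-flox, replicate 1 was the lowest for all 5 genes and replicate 4 the highest for all but Jun, whose replicate 3 was higher. In AVP-flox;Cre, replicate 2 was the highest for all 5, and replicate 1 the lowest for all but Fos, whose replicate 4 was lower. Over the 10 pairs of these genes, chosen after their values were seen, Pearson's r of deviations from the group mean ran from 0.74 to 0.99 over 8 libraries, and Spearman's rho from 0.79 to 0.98. Without AVP-flox;Cre 2, r ran from 0.70 to 0.99 over 7 libraries. Ier3 shared part of this pattern, with r of 0.72 with Fos, 0.74 with Ier2, 0.68 with Egr1, 0.39 with Jun and 0.36 with Junb. Jund gave r of -0.01 to 0.17 with the same 5 genes. The values of a library share its RNA, its depth and its scaling, so these are descriptions with no p.

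Outside the members, the 5 genes of 11955 searched whose deviations were most like those of Fos were Khdrbs3 (r = 0.98), Mcrip1 (0.97), Cldn4 (0.97), Scarf1 (0.97) and Gdf15 (0.96), over 8 libraries. Cldn4, a tight junction claudin, stood at 118 to 141 TPM in AVP-flox and reached 210 TPM in AVP-flox;Cre 2. For Jun they were a gene with no symbol (0.98), Eif4ebp1 (0.96), Sdhaf4 (0.96), Ppp1r15a (0.95) and Lgals3bp (0.95). Eif4ebp1 is a repressor of translation, and Ppp1r15a reverses the integrated stress response. For Egr1 they were Cetn3 (0.985), Dph1 (0.97), Psme2 (0.96), Gm56911 (0.96) and A730063M14Rik (0.95). So high a value is easily reached when 11955 genes are searched over 8 libraries.

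The wider pathway was read from lists of dimer partners, other immediate early genes, kinases and serum response factors, AP-1 targets and CREB genes. Of 125 genes, 110 were tested, 9 rose and 22 fell, which is 8.18% and 20.0% where 13.1% and 14.2% of all tested genes rose and fell. The median log2 fold change was -0.08. The number that fell was 13 without AVP-flox 3, 14 without AVP-flox;Cre 4 and 11 without the 3 libraries that stood apart. Over all tested genes, 1988 of 19117, 2436 of 18459 and 1182 of 18984 fell in these fits, against 2713 of 19043 with all libraries. With libraries corrected for 5' GC content, 12 rose and 19 fell, where 2373 and 2578 of 16581 tested genes did. Of 15 AP-1 dimer partners, 0 rose and 2 fell in limma, with 1 higher at an unadjusted p under 0.05. So 13.3% of them changed, where 27.3% of all tested genes did. Nfe2l2, the NRF2 factor of the antioxidant response, fell from 245 to 357 TPM to 181 to 200 TPM (log2 fold change -0.57, limma adjusted p = 0.00350), and Jdp2, a repressor that pairs with Jun proteins, from 20.3 to 33.7 TPM to 14.0 to 19.7 TPM (-0.60, limma adjusted p = 0.0218). Atf3, a stress-induced partner, stood at 2.47 to 10.06 and 5.51 to 23.85 TPM and did not pass.

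Of 16 tested other immediate early factors, of 19 listed, 1 rose and 6 fell, so 43.8% changed where 27.3% of all tested genes did. Nfil3, a repressor linked to the circadian clock, had the largest fall among them (log2 fold change -2.01, limma adjusted p = 0.000288), from 12.1 to 19.8 TPM in AVP-flox to 1.77 to 4.27 TPM in AVP-flox;Cre. Klf2 (-1.04) and Id1 (-0.85) fell too, and Nr4a2, an orphan nuclear receptor, rose (0.69, limma adjusted p = 0.00655). Of 32 feedback and effector genes, 1 rose and 3 fell, so 12.5% changed. Ccn1, a secreted matrix protein, rose from 19.2 to 32.4 TPM to 45.6 to 109 TPM (1.30, limma adjusted p = 0.00446), and Plk3 (-1.42), Arc (-0.79) and Ppp1r15a (-0.56) fell. Dusp1, the phosphatase that switches off the MAP kinases, stood at 254 to 462 and 332 to 602 TPM and did not pass.

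Of 26 tested kinases and serum response factors, of 27 listed, 3 rose and 5 fell, so 30.8% changed where 27.3% of all tested genes did. Srf, the factor that binds the CArG box, stood at 12.25 to 13.10 TPM in AVP-flox and 5.06 to 8.52 TPM in AVP-flox;Cre (log2 fold change -0.83, limma adjusted p = 0.00379). Mapk9, a kinase that phosphorylates Jun, fell by 0.57 on the log2 scale (limma adjusted p = 0.000979), and the p38 kinase genes Mapk11 and Mapk12 fell by 0.63 and 0.47. Elk1, a partner of Srf, fell as well, while Map2k3, Elk4 and Mrtfb rose. Of 15 tested AP-1 targets, of 25 listed, 4 rose and 4 fell, so 53.3% changed. Ccl2, a chemokine that attracts monocytes, rose by 2.13, and Spp1, Plaur and Mmp14 rose by less, while the metallothioneins Mt1 and Mt2, Nqo1 and Fth1 fell. Among 7 tested CREB targets and coactivators, of 8 listed, 0 rose in limma, also at an unadjusted p under 0.05, and Sik1 (-1.08) and Crtc3 (-0.42) fell. Thus 28.6% of the 7 changed. These counts cover only the genes placed in this list. Fos, which CREB can switch on, and Nr4a2, which rose, were listed elsewhere. Of 12 heat shock genes that tissue handling induces, 1 rose and 7 fell, so 66.7% changed. Hsph1 (-1.36), Hsp90aa1 (-0.82), Hspd1 (-0.75) and Dnajb4 (-0.62) were among those that fell, while Hspa1a and Hspa1b, the most readily induced, did not pass (log2 fold change -0.13 and -0.16).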

How the data were processed

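The authors deposited TPM values per Ensembl mouse gene for 8 libraries, and STAR and RSEM are named without versions in the submitters' processing notes. Per the labels' protocols, SMART-Seq HT cDNA and Nextera XT libraries were read in pairs. The genome build is not given in the sources used here. WT columns were taken as AVP-flox and KO columns as AVP-flox;Cre, by replicate number. Symbols shared by several identifiers (312) were summed. The 19043 genes that averaged 1 TPM or more were tested as log2(TPM + 1) with limma 3.58.1 in R 4.3.3, with a mean-variance trend and no covariate. Exact permutation tests used scipy 1.17.1. RefSeq GRCm38.p6 gave the upstream sequences (7 members used), and GENCODE M21 gave GC content and overlaps (87.1% of tested genes matched). The members and lists were chosen with earlier results of these data known. From each list up to 4 changed genes with the smallest adjusted p were named, with the 5 genes most like Fos, Jun and Egr1 among those of at least 5 TPM; Atf3, Dusp1, Hspa1a, Hspa1b and other list members were named after their values were seen. Alternatives were a replicate block, other pseudocounts, filters, scalings, weights, moderation, thresholds, covariates, a GC correction and libraries left out.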

Additional observations from a re-analysis of the deposited data

Results flagged for a closer look

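On the TPM scale, over the 20 sets of 4 libraries (10 members in 2 genotypes), 2 had a single library far from the others. Chance alone flags about 1 in 20 sets where values are normally distributed and sets are independent. Several members varied together, so that rate need not hold here. Fos in AVP-flox;Cre stood at 73.25 TPM in replicate 2, and the gap to the nearest library was 0.939 of the whole range. Egr1 in AVP-flox stood at 102.33 TPM in replicate 4, with a gap of 0.965 of the range. On the log2(TPM + 1) scale, examined after the data were seen, these gaps were 0.731 and 0.825 of the range, both under Dixon's 95% critical value. On that scale 1 set passed it, Jund in AVP-flox, where replicate 1 was low with a gap of 0.846.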

How the results depend on the processing

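TPM gives no depth, and 4 libraries a group limit the precision. The alternatives with a looser threshold and with a log2 fold change of at least 1 reuse the main fit and its adjusted p-values. They are therefore no further check of the calls of single members. Over 26 alternatives, these included, Ier3 stayed past the threshold (1.47 to 1.78), and Jund (-1.30 to -0.53) stayed past it in 25. The exception was the fit without AVP-flox;Cre 2 and 4 and AVP-flox 2, where 0 members fell by limma and 1, Jund, had a lower value at an unadjusted p under 0.05. There 1378 genes rose and 1182 fell, and 4 and 11 of the wider lists. Fos turned from 0.17 to -0.18 with sample weights, -0.0066 with the Xist and Y-linked pattern as covariate, -0.84 without AVP-flox;Cre replicate 2 and -0.60 without the 3 libraries, and Ier2 from 0.37 to -0.085 and -0.042 in the last 2. The Xist and Y-linked pattern differed among the libraries. With it as covariate, Ier3 and Jund kept their calls (limma adjusted p = 0.000215 and 0.0256). Leaving out 1 library gave -0.84 to 0.66 for Fos and -0.085 to 0.62 for Ier2, 0.42 to 2.25 for Egr1, 0.12 to 0.61 for Jun and -0.51 to -0.0038 for Junb. Without a filter, 1766 genes rose and 1643 fell, against 2491 and 2713, and 12 of the wider lists fell, against 22. With a log2 fold change of at least 1, 606 genes rose and 465 fell, and 3 and 7 of the wider lists. Leaving out 1 library gave 2004 to 2529 rises and 1988 to 2436 falls over all genes, and 8 to 11 rises and 13 to 21 falls in the wider lists (13 falls without AVP-flox 3, 14 without AVP-flox;Cre 4). The cause was not tested. Deviations of same-numbered libraries gave r of 0.001 to 0.095, and those of differently numbered libraries gave -0.063 to 0.068. With so few libraries this cannot settle whether the numbers pair them. With a replicate block 2187 genes rose and 2244 fell, and Ier3 and Jund kept their calls (adjusted p = 0.000980 and 0.0338).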

Other observations

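Other rapidly induced genes, chosen after their values were seen, did not all follow Fos. Nr4a1, an orphan nuclear receptor, stood at 10.34, 11.04, 12.22 and 73.18 TPM in AVP-flox 1 to 4 and at 2.68, 18.41, 60.76 and 5.65 TPM in AVP-flox;Cre 1 to 4. It was thus high in AVP-flox 4 and AVP-flox;Cre 3, which also had high Egr1, but not in AVP-flox;Cre 2, where Egr1 and Fos peaked. Egr2 stood at 3.08, 1.4, 6.19 and 11.05 TPM and at 0.70, 3.92, 12.97 and 1.23 TPM, highest in the same pair of libraries as Nr4a1. Nfkbia, the NF-kB inhibitor, was highest in AVP-flox;Cre 2 (481.69 TPM) and AVP-flox 4 (341.26 TPM). Trib1 was lowest in AVP-flox;Cre 2, at 11.26 TPM against 27.09 to 79.20 TPM elsewhere. None of these 4 passed the test between genotypes in limma.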
